A study of Bos taurus with 6 samples.

Results

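The nuclear pore complex and the receptors that carry cargo through it were examined in bovine blastocysts made in vitro. RNA sequencing compared blastocysts labelled as having high or low cryosurvival after vitrification. Vitrification is rapid cooling to a glass without ice crystals. The 41 genes described were all those of the 9537 genes in the table whose names begin with NUP or NUPL and a digit (nucleoporins), KPNA or KPNB, IPO or TNPO and a digit (importins and transportins), XPO and a digit (exportins) or RANBP and a digit (Ran-binding proteins). They were taken by name, without a filter on their values, but the genes were chosen with earlier results of these data known. By role they were 20 nucleoporins, RANBP2 among them, 5 importin alpha adaptors, 10 receptors of the importin beta type, 3 exportins and 3 Ran-binding proteins that act outside the pore. RefSeq's gene table for assembly ARS-UCD2.0 lists 39 of these names as current symbols and the other 2 as older ones, NUPL1 for NUP58 and NUPL2 for NUP42.

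The study set 3 libraries of blastocysts with high cryosurvival against 3 of blastocysts with low cryosurvival. All embryos were cultured in SOFaaci, a synthetic oviduct fluid medium, and all RNA samples had an integrity number of 7.7 or above. The titles also code each high library V and each low library NV, and a difference that these codes may mark cannot be told apart from cryosurvival. No source used here states the breed, the number of embryos per library or whether RNA was isolated before or after vitrification. Nor is it stated that replicate libraries were separate cultures or pools of embryos, so each p-value reflects only how much these libraries scatter, and that scatter may be technical.

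Nuclear pores are channels through the nuclear envelope, built from a scaffold of stacked rings, a central channel lined by nucleoporins with phenylalanine-glycine repeats, filaments on the cytoplasmic face and a basket on the nuclear face. Importins bind cargo in the cytoplasm and release it where the small GTPase Ran carries GTP, in the nucleus, while exportins bind cargo together with Ran-GTP and release it in the cytoplasm. In the early embryo this traffic brings transcription factors and chromatin proteins to the nuclei of dividing cells.

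Values are CPM, the reads of a gene scaled for the size of its library, and are not corrected for transcript length, so levels are compared between libraries and not between genes. The libraries held 14651477 to 19467022 reads in the table, the fewest in low library 2. Low library 2 stood apart from the rest. It was the lowest of the 6 libraries in 35.5% and the highest in 34.4% of all genes. For low library 1, the next most extreme, these shares were 21.4% and 22.4%, and for the other 4 libraries 8.9% to 13.1% and 8.02% to 14%. Calls and the medians of roles with several genes are therefore given with and without low library 2. Low library 2 was singled out by its values in these same data, so p-values without it may be too small.

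Markers of the cell types that an embryo sample can hold were measured in every library, none of them at 0. No marker was called by limma with all 6 libraries. Without low library 2, limma called 1 trophectoderm marker lower in low (GATA2). Of the epiblast markers 3 were called lower (NANOG, LEFTY2 and DPPA3) and 1 higher (LIN28A). Called higher were 3 hypoblast markers (COL4A1, RSPO3 and BMP2), and called lower was 1 cumulus and granulosa marker (INHBA). The share called over all genes was 13.6% in that comparison. Of the 13 trophectoderm markers 10 were measured, with a summed level of 32350 to 35800 CPM in high and 27670 to 37850 CPM in low libraries and a median log2 difference, low minus high, of -0.19 (-0.26 without low library 2). GATA2 (-0.41), DAB2 (-0.46) and TFAP2A (-0.67) were the 3 with a negative log2 difference at an unadjusted p below 0.05, and PAG11 (0.72) was the 1 with a positive difference. All 9 epiblast markers were measured, with sums of 1544 to 1698 CPM in high and 1462 to 1617 CPM in low libraries and a median difference of -0.084 (-0.025 without low library 2). Of the 9, 4 had a positive log2 difference, LIN28A (0.38), KLF4 (0.29), SOX2 (0.26) and POU5F1 (0.004), and 5 a negative one. The 2 at an unadjusted limma p below 0.05 were NANOG (-1.23, limma adjusted p = 0.164) and LEFTY2 (-1.29, limma adjusted p = 0.176). In both, every low library was below every high one. Of the 11 hypoblast markers 9 were measured, with sums of 2279 to 2970 CPM in high and 1533 to 3045 CPM in low libraries and a median difference of 0.47 (0.37 without low library 2). RSPO3 (0.88), BMP2 (0.50) and GATA4 (0.47) had positive differences and HNF4A (-0.46) a negative one at an unadjusted p below 0.05. In low libraries 1, 2 and 3 the median log2 deviation from the high mean was -0.22, -0.061 and -0.34 for trophectoderm, 0.081, -0.78 and -0.063 for epiblast and 0.47, -0.22 and 0.28 for hypoblast markers. Of the 12 genes listed as cumulus and granulosa cell markers, to look for cells carried over from the follicle, 6 were measured. PTX3, HAS2, TNFAIP6, AMH, FOXL2 and VCAN were not. Whether the RNA of the 6 came from such cells was not tested. The sums of the 6 were 421 to 548 CPM in high and 396 to 542 CPM in low libraries. Most of each sum came from HSD3B1 (245 to 357 CPM over all libraries) and CYP11A1 (111 to 239 CPM), while FSHR was at 7.06 to 9.04 CPM. The median difference was -0.19 (-0.16 without low library 2). Besides NANOG and LEFTY2, every low library was below every high one in GATA2, DAB2, TFAP2A, TFAP2C, HNF4A and FSHR (10.6% of all genes). The low libraries were all above the high ones in PAG11, GATA4, RSPO3 and BMP2 (10.4% of all genes). An unadjusted limma p below 0.05 was found in 12% of all genes. The marker genes of every cell type were named after their values were seen. The part of these cell types in the results below was not tested. In whole embryos, fewer cells of a type and less RNA per cell cannot be told apart.

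None of the 41 transport genes passed the test between low and high cryosurvival over all genes. Limma on log2(CPM + 1) with Benjamini-Hochberg adjustment called 0 of the 41 at an adjusted p of 0.05 with all 6 libraries, and 0 of 9537 genes over the table (0%). At an unadjusted p of 0.05, 1 of the 41 passed, against 12% of all genes. Voom on the reads recovered from the CPM also called 0 genes, with 1120 at an unadjusted p of 0.05. In the authors' deposited table the lowest adjusted p of the 41 was 0.659, for NUP50, so 0 of the 41 were called there, against 1.2% of all genes. The median log2 difference of the 41, low minus high, was -0.01, with 19 genes above 0 and 22 below, beside a median of 0 over all genes, of which 50% lay above 0. This median was 0.005 when each library was centred on its median over all genes and -0.037 when scaled to the table total. The groups were fully separated in 3 of the 41, each with the low libraries above the high ones, against 10.4% of all genes. Separation the other way was seen in 0 of the 41, against 10.6% of all genes.

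**Figure D1:**
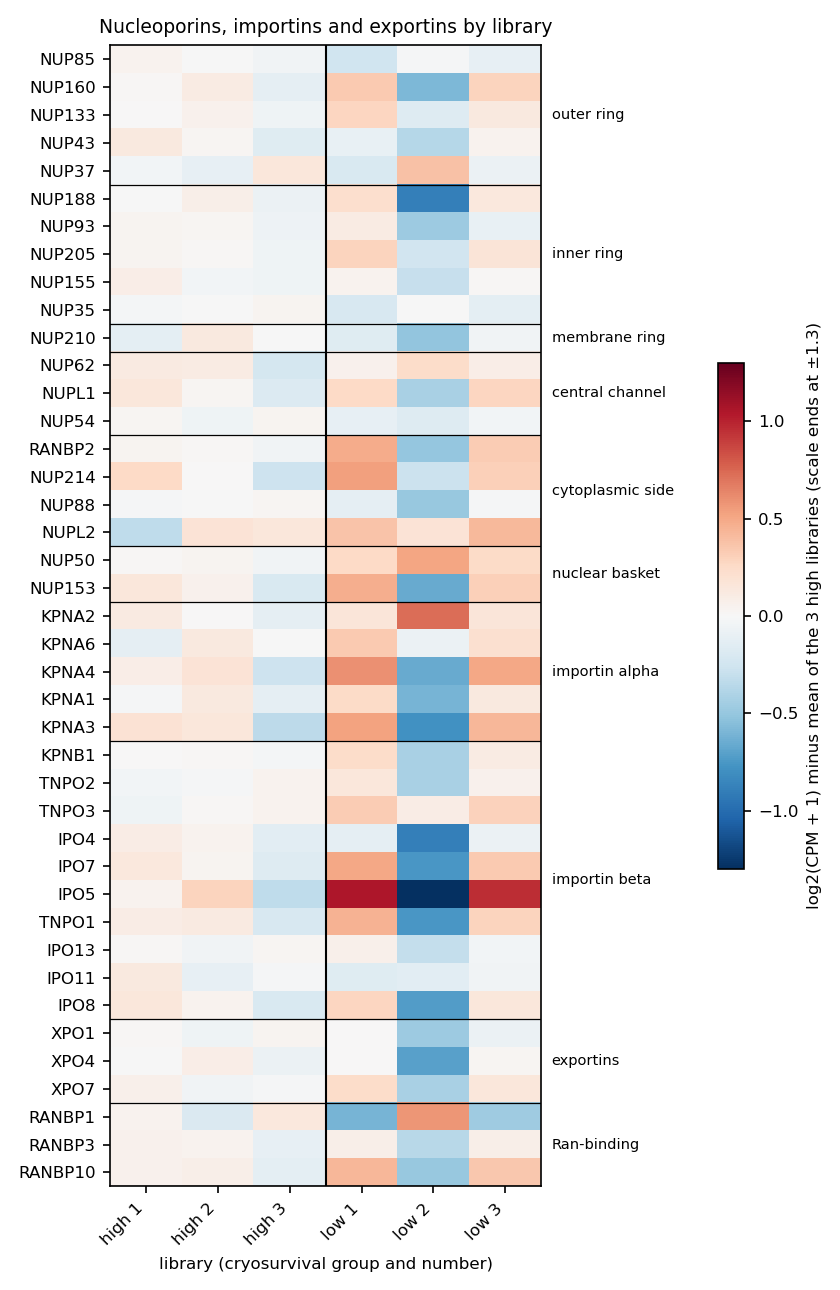
Level of each of the 41 genes (rows, grouped by role) in each library (columns), as log2(CPM + 1) minus the mean of the 3 high libraries; red is higher and blue lower, and the colour scale ends at ±1.3. Low library 2 is blue for most genes where low libraries 1 and 3 are red, and IPO5 shows the widest span.

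The 3 genes with every low library above every high library were NUP50, KPNA2 and TNPO3. NUP50, a basket nucleoporin that binds importin alpha and helps to release its cargo, was at 104, 125 and 104 CPM in low libraries 1, 2 and 3 and at 87.8, 89.6 and 84.1 CPM in high libraries 1, 2 and 3. Low library 2 was the highest, and low libraries 1 and 3 lay close together above the high range. The means were 111 ± 12.2 CPM in low and 87.2 ± 2.76 CPM in high embryos (SD, n = 3 each), a ratio of 1.27. Its log2 difference was 0.34 ± 0.13 (SE), the largest relative to its error among the 41, and its limma adjusted p was 0.362. It was the one gene of the 41 with an unadjusted limma p below 0.05 (0.0331).

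KPNA2, an importin alpha that links proteins with a classical nuclear localization signal to importin beta, was at 262, 389 and 262 CPM in the low and 254, 235 and 215 CPM in the high libraries. Here the separation was narrow, since low libraries 1 and 3 lay just above high library 1, and low library 2 carried most of the difference. The means were 304 ± 73.5 against 235 ± 19.3 CPM (SD, n = 3 each), with a log2 difference of 0.35 ± 0.19 (SE) and a limma adjusted p of 0.562. Without low library 2 the difference was 0.16. TNPO3, a receptor that imports splicing factors with serine-arginine domains, was at 151, 128 and 148 CPM in the low and 115, 121 and 123 CPM in the high libraries. In this gene low library 2 was the lowest of its group and only just above the high range. The means were 142 ± 12.5 against 119 ± 4.47 CPM (SD, n = 3 each), with a log2 difference of 0.24 ± 0.12 (SE) and an adjusted p of 0.526 by limma.

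**Figure D2:**
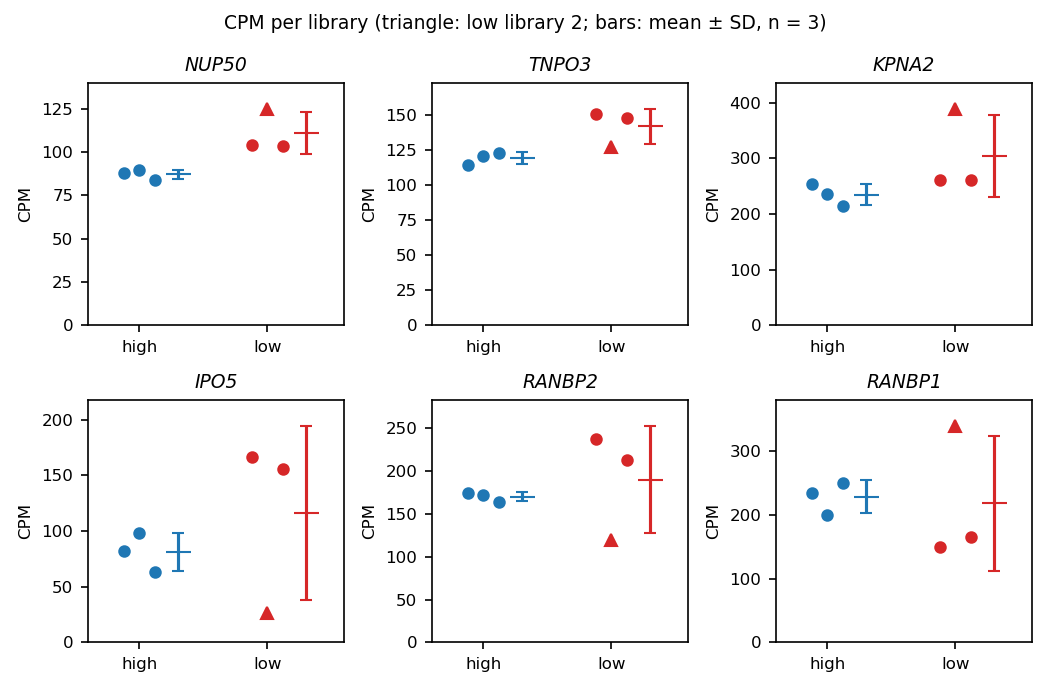
CPM (vertical axes, from 0) of 6 genes in each library, high on the left and low on the right; triangles mark low library 2 and bars give the mean ± SD (n = 3). NUP50, TNPO3 and KPNA2 separate the groups, while in IPO5, RANBP2 and RANBP1 low library 2 lies on the other side of the high libraries from low libraries 1 and 3.

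Among the scaffold nucleoporins of the outer ring, the Y complex that coats the pore membrane, the median log2 difference of the 5 measured genes was 0.017, and -0.029 without low library 2. NUP160, a long arm subunit, was at 128, 67.1 and 124 CPM in the low and 102, 108 and 93.0 CPM in the high libraries. Low libraries 1 and 3 were above all high libraries and low library 2 was below them, and the log2 difference was 0.017 ± 0.26 (SE). NUP133, the subunit at the stem end of the complex, had the same arrangement, at 64.4, 46.8 and 57.6 CPM against 52.7, 54.6 and 50.8 CPM. NUP85 was at 117, 138 and 129 CPM in low against 144, 139 and 135 CPM in high libraries, with low libraries 1 and 3 below the high range and low library 2 inside it. NUP43 and NUP37, small peripheral subunits, were at 39.7 to 53.1 CPM in low against 46.3 to 56.3 CPM in high and at 22.2 to 33.6 CPM against 23.6 to 28.5 CPM. NUP37 was highest in low library 2, at 33.6 CPM.

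The inner ring, which lies against the membrane and anchors the central channel, had a median log2 difference of -0.11 over 5 genes, and 4 of them were below 0. The sign turned without low library 2, to a median of 0.030 with 4 of the 5 above 0. NUP188, a large inner ring subunit, was at 155, 71.4 and 146 CPM in the low and 133, 140.3 and 126 CPM in the high libraries. Low library 2 was at 0.475 of the mean of the other low libraries, and the groups overlapped. NUP205, its paralog in the ring, was at 108, 73.8 and 98.9 CPM in low and 90.5, 89.3 and 84.8 CPM in high libraries, a smaller span in the same order. NUP93, which links the inner ring to the channel, was at 81.0 to 122 CPM in low and 108 to 116 CPM in high libraries. NUP155 was at 53.5 to 68.3 CPM against 63.6 to 70.4 CPM, and low library 2 was the lowest library in both. NUP35, which binds NUP93 and NUP155, varied least here, with a highest over lowest library ratio of 1.18. NUP210, a membrane glycoprotein of the pore that is known for its cell type specific expression, was at 0.451 to 0.995 CPM in low and 0.896 to 1.26 CPM in high libraries. These values rest on 6 to 24 reads per library, so a small difference would be hard to see at this depth. What could be detected was not tested. Each of the other 40 genes had at least 92 reads in every library.

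In the central channel, NUP62, the repeat nucleoporin that forms a coiled-coil trimer with NUP54 and NUP58, was at 214, 244 and 218 CPM in the low and 224, 222 and 176 CPM in the high libraries. High library 3 was the lowest, the groups overlapped, and the log2 difference was 0.13 ± 0.14 (SE). NUP54 varied least of the 41, at 45.5 to 49.8 CPM in low and 49.1 to 52.5 CPM in high libraries, a highest over lowest ratio of 1.15. NUPL1, the third subunit of the trimer, did not follow NUP54, at 109.6, 68.3 and 111 CPM in low and 102, 93.3 and 81.1 CPM in high libraries. The median log2 difference of the 3 channel genes was 0.037, and 0.071 without low library 2.

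On the cytoplasmic side 3 of 4 genes had a positive difference, with a median log2 difference of 0.14. The median was 0.40 without low library 2 and -0.036 without low library 1. RANBP2, also known as NUP358, forms the cytoplasmic filaments, binds Ran and acts as a SUMO ligase. It was at 238, 119.8 and 214 CPM in the low and 175, 172 and 165 CPM in the high libraries. The high libraries lay close together, low libraries 1 and 3 were above them and low library 2 below. The log2 difference of RANBP2 was 0.10 ± 0.26 (SE). NUP214, which with NUP88 holds messenger RNA export factors at this face, was at 148, 84.3 and 127 CPM in low and 123, 103 and 84.8 CPM in high libraries. NUP88 itself was at 77.0, 58.8 and 82.6 CPM in low and 82.4, 83.2 and 84.6 CPM in high libraries, so that only low library 2 was clearly apart from the rest. NUPL2, another protein of the export platform, was at 8.99, 7.74 and 9.37 CPM in low and 5.15, 7.76 and 7.54 CPM in high libraries, where high library 1 was the lowest and low library 2 lay inside the high range. In the basket, NUP153, the repeat nucleoporin that anchors it, was at 105, 47.8 and 94.2 CPM in low and 83.6, 78.5 and 65.8 CPM in high libraries. Unlike NUP50, it was lowest in low library 2, and its log2 difference was 0.044 ± 0.30 (SE). The median log2 difference of the 2 basket genes was 0.19, and 0.32 without low library 2.

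**Figure D3:**
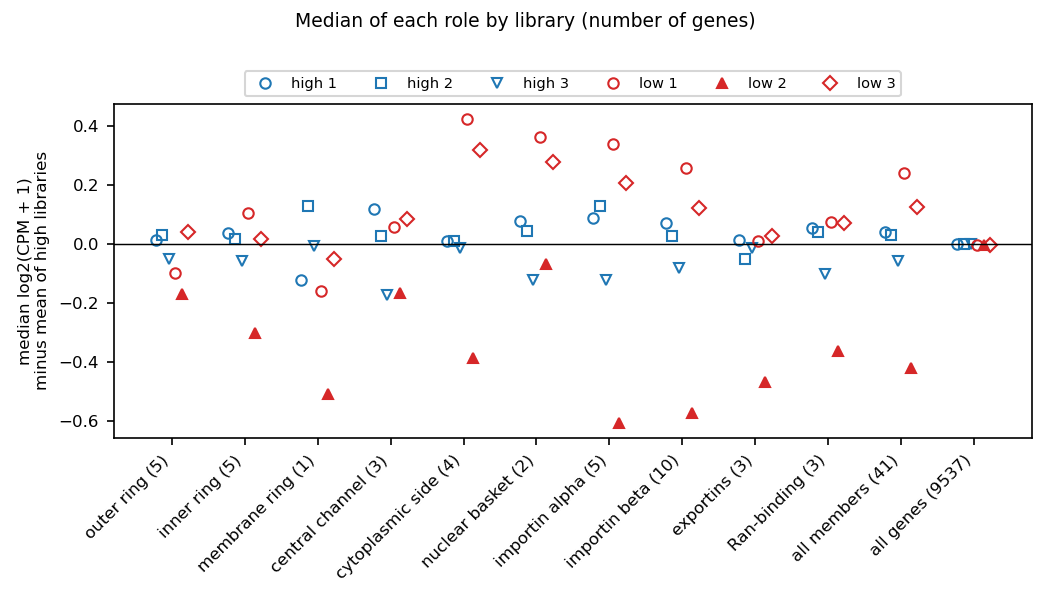
Median over the genes of each role (horizontal axis, number of genes in brackets) of log2(CPM + 1) minus the mean of the high libraries (vertical axis), 1 symbol per library; the filled triangle is low library 2. The median over all genes is near 0 in every library, while low library 2 is the lowest for every role except the central channel and the nuclear basket, where high library 3 is.

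The importin alpha adaptors had a median log2 difference of 0.15 over 5 measured genes, 4 of them above 0, and none called. The median was 0.27 with all 5 above 0 without low library 2, and -0.077 without low library 1. KPNA4, an adaptor of the KPNA3 and KPNA4 subfamily, was at 74.4, 30.8 and 69.9 CPM in the low and 52.2, 55.7 and 40.7 CPM in the high libraries. KPNA3, its close relative, was at 36.7, 14.2 and 34.4 CPM in low and 28.9, 28.2 and 19.8 CPM in high libraries. In both genes low libraries 1 and 3 were the highest, high library 3 was below the other high libraries, and low library 2 was the lowest. KPNA1 was at 42.2, 22.9 and 38.7 CPM in low against 35.1, 38.7 and 32.6 CPM in high libraries, so that low library 3 lay inside the high range. KPNA6, of the same subfamily as KPNA1, was at 89.0, 66.5 and 81.1 CPM in low and 64.4, 76.8 and 69.9 CPM in high libraries, with low library 2 inside the high range. KPNA2 moved against these adaptors in low library 2. Its part of the summed CPM of the 5 adaptors was 51.9%, 74.3% and 53.9% in low libraries 1, 2 and 3 and 58.4%, 54.2% and 56.9% in high libraries 1, 2 and 3. Low libraries 1 and 3 were thus both below all high libraries in this share, and low library 2 was far above them. The share is not corrected for length and was formed after the values were seen.

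The importin beta receptors had a median log2 difference of -0.049 over 10 genes, with 3 above 0 and 7 below. Leaving out low library 2 gave 0.19, with 8 above 0 and 2 below. KPNB1, importin beta itself, which carries the alpha adaptors with their cargo, was at 664, 419 and 604 CPM in the low and 563, 568 and 553 CPM in the high libraries. The high libraries lay close together, with an SD of 7.62 CPM against 127.7 CPM in low, and the log2 difference was -0.025 ± 0.19 (SE). IPO5, an importer of ribosomal proteins and histones, had the widest span of the 41, at 166, 26.1 and 156 CPM in low and 82.4, 98.0 and 63.2 CPM in high libraries. The highest library was 6.36 times the lowest, and both were in the low group. Its log2 difference of 0.14 had an SE of 0.68 and a limma adjusted p of 0.974.

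IPO7, a partner of KPNB1 in the import of linker histone and also an importer of ribosomal proteins, was at 152, 63.2 and 136 CPM in low and 118, 109.9 and 95.2 CPM in high libraries. TNPO1, the receptor of hnRNP A1 and related RNA-binding proteins, was at 104, 44.7 and 93.6 CPM in low and 81.7, 82.6 and 65.8 CPM in high libraries. Both repeated the arrangement of IPO5 over a narrower range. TNPO2, the close paralog of TNPO1, stayed within 171 to 179.6 CPM in the high group and was at 193, 130.1 and 182 CPM in the low group. IPO4, an importer of histones, was the gene with the most negative log2 difference, -0.36 ± 0.23 (SE, limma adjusted p = 0.649). It was at 115, 67.4 and 119 CPM in low and 135, 129 and 114 CPM in high libraries, and low libraries 1 and 3 lay inside the high range. Without low library 2 the difference of IPO4 was -0.10. IPO8, a paralog of IPO7, was at 10.5 to 22.0 CPM in low and 15.6 to 20.1 CPM in high libraries and IPO13, a receptor that works in both directions, at 57.1 to 74.1 CPM and 68.7 to 72.3 CPM. IPO11 varied little, at 27.0 to 29.3 CPM in low and 27.9 to 33.1 CPM in high libraries.

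The 3 measured XPO exportins had negative log2 differences with all 6 libraries, none of them called, and a median of -0.18. Without low library 2 the median was 0.018 and 2 of the 3, XPO4 (0.018) and XPO7 (0.20), were above 0. XPO1, the main export receptor for proteins with a leucine-rich nuclear export signal, was at 209.8, 151 and 199 CPM in the low and 211, 202 and 215 CPM in the high libraries. Low library 1 and high library 1 were nearly equal and only low library 2 lay far off, and the log2 difference was -0.18 ± 0.16 (SE, limma adjusted p = 0.766). XPO4 was at 81.0, 48.9 and 82.0 CPM in low and 80.4, 85.3 and 76.0 CPM in high libraries, again with low library 2 alone outside. XPO7 was at 54.2 to 86.3 CPM in low and 70.3 to 76.1 CPM in high libraries, with a log2 difference of -0.010, which turned to 0.005 when libraries were centred on their median. Of the Ran-binding proteins, RANBP1, a cytoplasmic cofactor that helps Ran to hydrolyse GTP, was at 149.8, 339.7 and 165 CPM in low and 236, 201 and 251 CPM in high libraries. Its low libraries 1 and 3 were below all high libraries and low library 2 was above them. The opposite arrangement, with low libraries 1 and 3 above and low library 2 below all high libraries, was found in 18 of the 41 genes. These 18 included 7 of the 15 importins, and the share over all genes was 13%. RANBP3, a cofactor of XPO1, was at 77.4 to 105 CPM in low and 93.0 to 104 CPM in high libraries. RANBP10, which resembles a ubiquitin ligase subunit more than a transport factor, was at 66.1, 34.5 and 62.5 CPM in low and 50.7, 51.6 and 44.5 CPM in high libraries, in the same order as RANBP2. The median log2 difference of the 3 Ran-binding proteins was -0.073, and 0.073 without low library 2.

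The arrangement that recurs through these genes can be counted. Low library 2 was the lowest of the 6 libraries in 30 of the 41 genes, against 35.5% of all genes, and the highest in 5 of the 41, against 34.4% of all genes. The 5 were NUP50, KPNA2, NUP62, NUP37 and RANBP1. The mean of low libraries 1 and 3 was at least 1.5 times low library 2 in 19 of the 41 (21.4% of all genes). Low library 2 was at least 1.5 times that mean in RANBP1 alone (17.9% of all genes). Summed over the 41 genes the level was 4795, 3654 and 4595 CPM in low libraries 1, 2 and 3 and 4352, 4276 and 4026 CPM in high libraries 1, 2 and 3. Low library 2 thus had the lowest sum, and low libraries 1 and 3 had the highest.

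High library 3 departed from its group in the same direction, by less. It was below both other high libraries in 27 of the 41 genes, against 38.4% of all genes. The full order of low library 2, then high library 3, then high libraries 1 and 2, then low libraries 1 and 3 was found in 16 of the 41 genes, against 8.65% of all genes. The reverse order was found in RANBP1 alone, against 8.49% of all genes. These orders were defined after the values were seen. Across the 41 genes the deviation of low library 2 from the mean of low libraries 1 and 3 went with that of high library 3 from the mean of high libraries 1 and 2, with a Pearson r of 0.671 and a Spearman rho of 0.643. Over all 9537 genes the values were 0.374 and 0.343. The 2 deviations share no library, but genes are not independent replicates, and each deviation rests on 1 library. The median over the 41 genes of the SD of log2(CPM + 1) was 0.12 in the high group, equal to that of all genes, and 0.31 in the low group, against 0.27 for all genes.

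**Figure D4:**
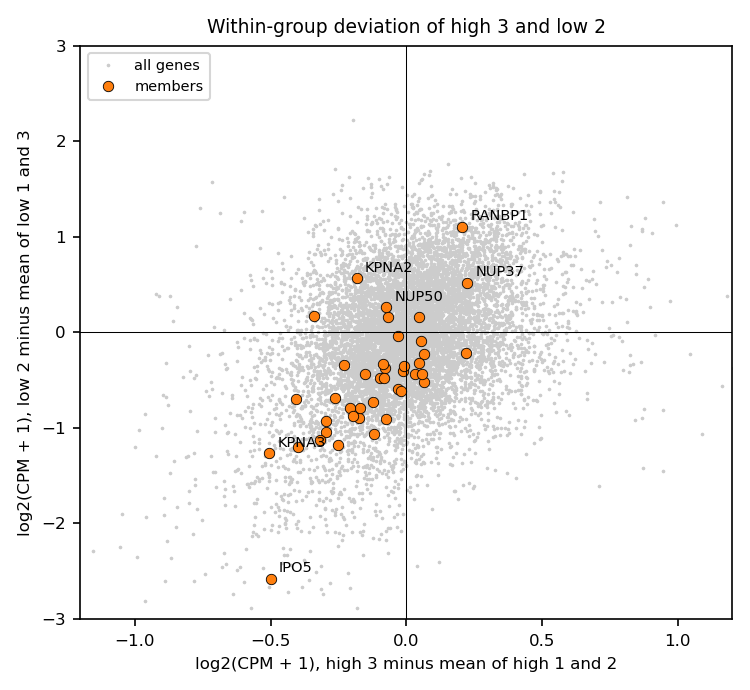
Deviation of high library 3 from the mean of high libraries 1 and 2 (horizontal) and of low library 2 from the mean of low libraries 1 and 3 (vertical), both in log2(CPM + 1), for the 41 genes (orange) and all genes (grey; 8 lie outside the range shown). Most of the 41 are in the lower left, with IPO5 and KPNA3 toward its end and RANBP1 in the opposite corner.

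The sign of the median of the 41 genes depended on which low library was left out. Without low library 2, 30 of the 41 genes were above 0 in low minus high, against 49% of all genes, and the median log2 difference was 0.18, beside -0.007 for all genes. Without low library 1 or low library 3 the median of the 41 was -0.14 and -0.12. Both low libraries 1 and 3 were above all high libraries in 23 of the 41 (27.6% of all genes) and below them in 3 (27.5% of all genes), which were RANBP1, NUP85 and NUP35. Limma called 3 of the 41 in this comparison of 2 libraries with 3, against 13.6% of all genes, so the share called did not exceed that of the table. By direction, 2 were higher in low (8.15% of all genes) and 1 was lower (5.48% of all genes).

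IPO5 was higher in low by 1.001 ± 0.18 (SE) on the log2 scale, with means of 161 and 81.2 CPM and a limma adjusted p of 0.0241. RANBP2 was higher by 0.40 ± 0.092 (0.0396), and RANBP1 was lower, with a difference of -0.53 ± 0.12 (0.0388). Close to the threshold were RANBP10 (0.39, limma adjusted p = 0.0505), KPNA4 (0.55, 0.0527) and TNPO3 (0.32, 0.0551). These p-values may be too small, since the library left out was singled out by its values. Voom without low library 2 called 13 of the 41, against 23.2% of all genes. Of the 13, 12 were higher in low, against 12.5% of all genes, and 1 was lower, against 10.7%. The higher ones were IPO5, RANBP2, KPNA4, RANBP10, IPO7, TNPO3, NUP153, NUP160, TNPO1, KPNA3, NUP50 and NUP214, and the lower one was RANBP1. The 2 methods gave the same sign to these genes and differed in how many passed. With low library 2 in the fit, IPO5 had the difference of 0.14 given above and RANBP2 and RANBP1 differences of 0.10 and -0.16, none of them called.

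**Figure D5:**
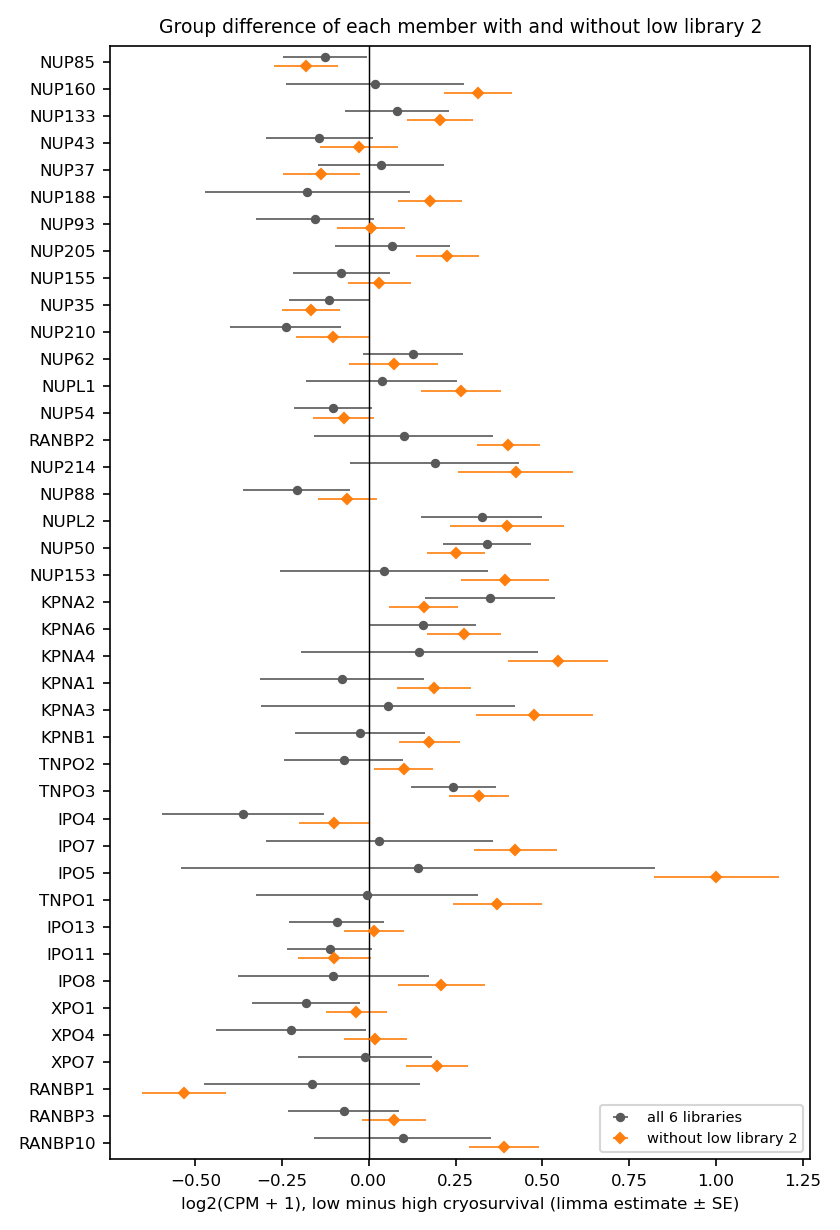
Log2(CPM + 1) difference, low minus high cryosurvival, with its standard error for each of the 41 genes (rows), with all 6 libraries (grey circles) and without low library 2 (orange diamonds). The largest shift is that of IPO5, from 0.14 to 1.001, and RANBP1 shifts the other way, from -0.16 to -0.53.

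Other genes of the pathway, taken from lists of pore proteins, the Ran cycle, further receptors, messenger RNA export, SUMO enzymes and the nuclear lamina, were measured in 56 cases. None was called by limma with all libraries. An unadjusted limma p below 0.05 was found in 1 of the 56, the messenger RNA export subunit THOC1, against 12% of all genes. THOC1 was at 64.6, 61.0 and 69.1 CPM in low and 82.1, 77.1 and 92.8 CPM in high libraries (limma adjusted p = 0.334). Every low library was below every high one, as in 10.6% of all genes. The median log2 difference of the 56 was 0.004, and -0.014 without low library 2. In contrast to the 41, their median deviation from the high mean in low library 2 was 0.086, against -0.42 for the 41; this difference was not tested.

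Within the Ran cycle, the GTPase RAN was at 339, 447 and 337 CPM in low and 376, 337 and 341 CPM in high libraries, so that low library 2 was the highest. RCC2, a relative of its exchange factor RCC1, was at 419.5 to 522 CPM in low and 439.5 to 483 CPM in high libraries. RAN thus lay with RANBP1, and opposite to KPNB1, in low library 2. Of the pore proteins outside the name rule, SEC13, shared with the vesicle coat, was at 175 to 231 CPM in low and 204 to 222 CPM in high libraries. AHCTF1, which seeds pores on chromatin, was at 179.9, 102 and 166 CPM in low and 147, 148 and 144 CPM in high libraries. TPR, the long coiled-coil protein of the basket, was at 135, 53.0 and 117 CPM in low and 93.2, 101 and 97.6 CPM in high libraries. AHCTF1 and TPR had the arrangement of NUP153, and TPR was named after its values were seen.

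CSE1L, the exportin that returns importin alpha to the cytoplasm, was at 165 to 193 CPM in low and 168 to 185 CPM in high libraries. XPOT, the exportin of transfer RNA, was at 157, 109.8 and 158 CPM in low and 158, 152 and 155 CPM in high libraries. Only the latter was set apart by low library 2. The export factors ALYREF and DDX39B were at 233 to 459.7 CPM and 257 to 280.3 CPM in low against 233 to 264 CPM and 277 to 296 CPM in high libraries. SUMO2, a small modifier that is joined to other proteins, was at 288 to 397 CPM in low and 331 to 369.6 CPM in high libraries. The lamina genes LMNA and BANF1 were at 281 to 320.3 CPM and 334 to 639.6 CPM in low against 237 to 261 CPM and 409.7 to 462 CPM in high libraries. In LMNA every low library was above every high one, as in 10.4% of all genes, and its limma adjusted p was 0.473. Without low library 2, 2 of the 56 were called by limma, against 13.6% of all genes, both named after their values were seen. The SUMO protease SENP1 was higher in low (0.41, adjusted p = 0.0352) and RANGRF, a Ran cofactor, was lower (-0.49, adjusted p = 0.0314).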

How the data were processed

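RNA sequencing of 6 libraries, 3 per group, was read from 1 table deposited by the authors. The values the authors deposited are CPM of a scaled library size, worked out from the values: up to 1000 CPM, 100% were whole multiples of a library's step within 0.05 read. The submitters' processing notes list, with no role stated, HTSeq 0.5.4p2, DESeq 1.12.1, TopHat2 2.0.8, SAMtools 0.1.18, Bowtie2 2.1.0 and Cufflinks 2.1.1. No source used here names the annotation, genome build, strand setting or a filter on low genes, so positions are left out and overlapping genes were not told apart. The lowest mean was 0.737 CPM. The deposited log2 fold and p-values are the authors' own, and the tool behind them is not given.

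Limma 3.58.1 in R 4.3.3 was fitted to log2(CPM + 1) of all genes, without covariate, two-sided, at a Benjamini-Hochberg adjusted p of 0.05. The pseudocount of 1 understates changes of low genes. The scripts were tested on simulated data in which no library stood apart, so that test does not show what could be detected here. Permuting 3 against 3 libraries cannot give an exact p below 0.1, so this was not done. Voom weighted the recovered reads. Named genes were those with an unadjusted p below 0.05 or a call, the 2 of highest CPM per role or list, and, for the 41 genes, the largest difference in each direction per role; the rest of the 41 were named after their values were seen. A result that this rule would name among the related genes is not reported here. The genes and lists were chosen with earlier results of these data known.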

Additional observations from a re-analysis of the deposited data

How the results depend on the processing

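With all 6 libraries no gene was called, as reported, and limma called 7 genes with a pseudocount of 0.25, 7 at a mean of at least 5 CPM and 7 after centring each library on its median, none of them among the 41. With 1 library left out the calls were 0 to 1300 over the table, 0 to 3 of the 41 and 0 to 2 of the 56 related genes, and every call came without low library 2. In 2 alternatives chosen after the values were seen, both without low library 2, centring gave 1320 calls over the table and 3 of the 41, and voom gave 2210 and 13. The replicate block, a fit with the replicate number as a block, called 0 genes and left 0 of the 41 at an unadjusted p below 0.05; across genes the deviations of same-numbered libraries from their group means correlated at r = 0.12, -0.26 and -0.31, so the numbers are not taken as pairs. Fits with edgeR and DESeq2 were planned and not run, voom being the fit used on the recovered reads, and the planned protein features were not computed. The median of the outer ring was -0.12 to 0.016 with 1 library left out, -0.27 to 0.018 for exportins, -0.19 to 0.19 for importin beta receptors, -0.14 to 0.030 for the inner ring, -0.077 to 0.27 for importin alpha adaptors, -0.036 to 0.40 for the cytoplasmic side, -0.096 to 0.073 for Ran-binding proteins, -0.081 to 0.11 for the central channel and 0.11 to 0.32 for the nuclear basket, so the sign held in the last alone. Signs changed at differences near 0, with no gene called in these cases: NUP160 was at -0.011 scaled to the table total, TNPO1 at 0.009, XPO7 at 0.005, AHCTF1 at 0.003 and BANF1 at 0.002 after centring, TNPO1 at 0.001 by voom and SENP1 at 0 with a pseudocount of 5. NUP210 was below the minimum of 5 CPM and was not tested under that alternative. In 16 of the 41 genes the sign held under every one of the 14 alternatives that tested them. The others changed sign with 1 library left out, and the log2 difference then spanned the following values. Among nucleoporins the range was -0.081 to 0.27 for NUPL1, -0.37 to 0.18 for NUP188, -0.28 to 0.006 for NUP93, -0.044 to 0.23 for NUP205 and -0.14 to 0.030 for NUP155. It was -0.14 to 0.32 for NUP160, -0.021 to 0.20 for NUP133, -0.14 to 0.15 for NUP37, -0.089 to 0.40 for RANBP2 and -0.17 to 0.39 for NUP153. The range among importins was -0.077 to 0.55 for KPNA4, -0.24 to 0.19 for KPNA1, -0.18 to 0.48 for KPNA3, -0.16 to 0.17 for KPNB1 and -0.18 to 0.10 for TNPO2. It was -0.21 to 0.42 for IPO7, -0.31 to 1.001 for IPO5, -0.23 to 0.37 for TNPO1, -0.17 to 0.014 for IPO13 and -0.29 to 0.21 for IPO8. For exportins and Ran-binding proteins it was -0.35 to 0.018 for XPO4, -0.14 to 0.20 for XPO7, -0.53 to 0.056 for RANBP1, -0.15 to 0.073 for RANBP3 and -0.070 to 0.39 for RANBP10. Other genes of the pathway ranged -0.17 to 0.24 for AHCTF1, -0.048 to 0.44 for ALYREF, -0.30 to 0.17 for BANF1, -0.055 to 0.15 for RAN and -0.14 to 0.019 for RCC2. It was -0.17 to 0.028 for SEC13, -0.24 to 0.024 for XPOT, -0.29 to 0.41 for SENP1 and -0.30 to 0.37 for TPR. The cause was not tested.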
